A study of Mus musculus with 18 samples.

Results

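The proximal VH segments of the mouse immunoglobulin heavy chain locus (Igh) were examined for their contacts with the intronic enhancer Eμ, measured by 4C-seq, in which every DNA fragment ligated to a single bait is amplified and sequenced. The stretch was chosen by position alone, as all fragment ends in mm10 at chr12:113526026-113926025, which lies 100 to 500 kb from the bait on the VH side. It held 1052 of the 56916 fragment ends listed on chromosome 12 in any of 18 libraries. The cells were CD43-negative splenic B cells fixed in 2% formaldehyde, and each of 6 groups had 3 libraries. Med1 mutant cells were taken after 2 days with LPS and IL4 or resting on day 0, WT cells after 2 days with LPS and IL4 or resting on day 0, and in a later deposit Med1 mutant cells and WT cells were each cultured for 2 days with LPS alone. The allele of the Med1 mutant and how it was made are not given in the sources used here, and neither is whether replicates came from separate animals, so p-values measure the spread between libraries, which may be technical. In the earlier deposit 6 libraries are titled WTKO but carry WT as their genotype, and the genotype was followed. The protocol label of WT LPS + IL4 replicate 2 names an antibody to CD40 with IL4 in place of LPS with IL4, so the agent in that library is uncertain.

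In mammals an Igh variable exon is assembled from a VH, a D and a J segment by V(D)J recombination, which the RAG proteins start at signal sequences beside each segment. The proximal VH genes belong mainly to the Ighv5 and Ighv2 (Q52) families, which alternate along the DNA, and those nearest the D segments are used often in early B cell development without contraction of the whole locus. Eμ lies between the J segments and the constant gene Ighm and acts on recombination and on transcription of the assembled gene. In mature B cells the DNA between the VH gene in use and the D segments is gone from an assembled allele, so contacts across this stretch come from alleles that still hold it. Med1 is a subunit of Mediator, the complex that connects enhancers with RNA polymerase II. LPS drives B cells to divide and to switch class, and IL4 directs the switching to Ighg1 and Ighe.

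The bait was amplified by inverse PCR with the pair of primers below, shown because every value is a contact of the fragment they define. The 250 bases upstream of Adam6a are shown because this gene, which encodes a sperm protein of the ADAM family, was the only one of the stretch with an entry in the RefSeq promoter table (GRCm38.p6). They lie at chr12:113543658-113543907 on the plus strand, in the 40 kb nearest the bait.
bait primer 1: tctgtcctaaaggctctgaga
bait primer 2: gaacacagaagtatgtgtatgga
Adam6a upstream: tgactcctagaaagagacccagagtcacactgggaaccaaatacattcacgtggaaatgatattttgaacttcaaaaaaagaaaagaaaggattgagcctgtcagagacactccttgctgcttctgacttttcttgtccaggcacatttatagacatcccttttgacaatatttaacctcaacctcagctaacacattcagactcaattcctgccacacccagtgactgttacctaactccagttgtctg
The DpnII site GATC, at which the chromatin was cut first, and the Csp6I site GTAC, at which it was cut second, are both absent from these bases, so neither enzyme has a cut site within them. Both sites read the same on either strand. Of 32544 upstream windows of 250 bases in the table, 41.7% held GATC and 31.5% held GTAC. Each listed end is an interval of 24 bases that abuts a GATC, which held for 268 of the 268 ends that fell inside promoter sequences of chromosome 12. The 1052 ends belong to 708 cut sites, 344 of them with an end listed on either side.

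The 12 libraries of the earlier deposit give reads per end. They held 2470497 to 21074434 reads in all and 1016042 to 10177883 reads on chromosome 12 more than 5 kb from the bait, which is the denominator of every share here and of RPM, reads per 1000000 of these reads. The stretch held 53257 to 509979 of these reads, and the 95% Wilson interval of its share reached at most 0.0433 percentage points to either side, for counting error alone. The 6 LPS libraries list covered ends without reads, so their depth is unknown. Mutant replicates 2 and 3 and WT replicate 3 on both days share 90 ends on chromosome 12 that have at least 50 reads in at least 5 of those 6 libraries and fewer in all of the others. Of these 90 ends 2 lie in the proximal VH segments, where they hold at most 0.9002% of a library's reads. Another 86 lie between 500 kb on the constant side of the bait and the stretch. Those of them over 5 kb from the bait count in the denominator of every share, and how much of it they hold is not given here. Mutant replicate 1 stood apart in another way: 11 ends of the stretch had under 5 reads on both of its days and at least 20 in 8 or more of the other 10 libraries, against 0 to 3 ends for each other replicate number. Whether the cause is a different batch or different DNA was not tested.

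The label of the stretch fits its annotation, which places 35 VH genes and VH pseudogenes in it. They comprise 20 genes of the Ighv5 family, 11 of Ighv2, 2 of Ighv7, 1 of Ighv6 and Gm7003, annotated as 21 V segments and 14 pseudogenes. The nearest, Ighv5-1, a pseudogene, lies 147 kb from the bait. The first part of the stretch holds no VH gene but Ighd5-1, a D segment pseudogene at chr12:113526800-113526809, and Adam6a at chr12:113543908-113546414. The pseudogenes Gm9517 and Rpl26-ps3 lie between VH genes.

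The contacts were distributed unevenly, and in each of the 12 libraries the same 60 kb had the most per kb and the 100 kb after them the next most. The 40 kb nearest the bait, which lack VH genes, had 31.3 to 80.8 RPM per kb, with a mean of 62.2. The next 60 kb, from Ighv5-1 to Ighv5-6, had 293 to 383 RPM per kb, with a mean of 329.9, and the ratio of these 60 kb to the 40 kb before them was 3.67 at the lowest and 11.03 at the highest, with a median of 4.95. Beyond them the level was 146 to 265 RPM per kb over the next 100 kb and 45.9 to 89 over the last 200 kb. The bounds between these 4 pieces were drawn after the values were seen, and no test was made between them.

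On the bait side the level just outside differed from that just inside. The last 40 kb before the stretch had 113 to 201 RPM per kb, above the 31.3 to 80.8 of the 40 kb just inside. On the far side the last 40 kb inside had 32.5 to 82.2, against 15.9 to 44.3 in the 40 kb beyond, so the libraries overlapped there. Per kb, the stretch had a mean of 130.5 RPM, against 765.8 in the J and D segments, 89.9 in the middle VH segments at 500 kb to 1.5 Mb and 46.4 in the distal VH segments beyond.

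**Figure D1:**
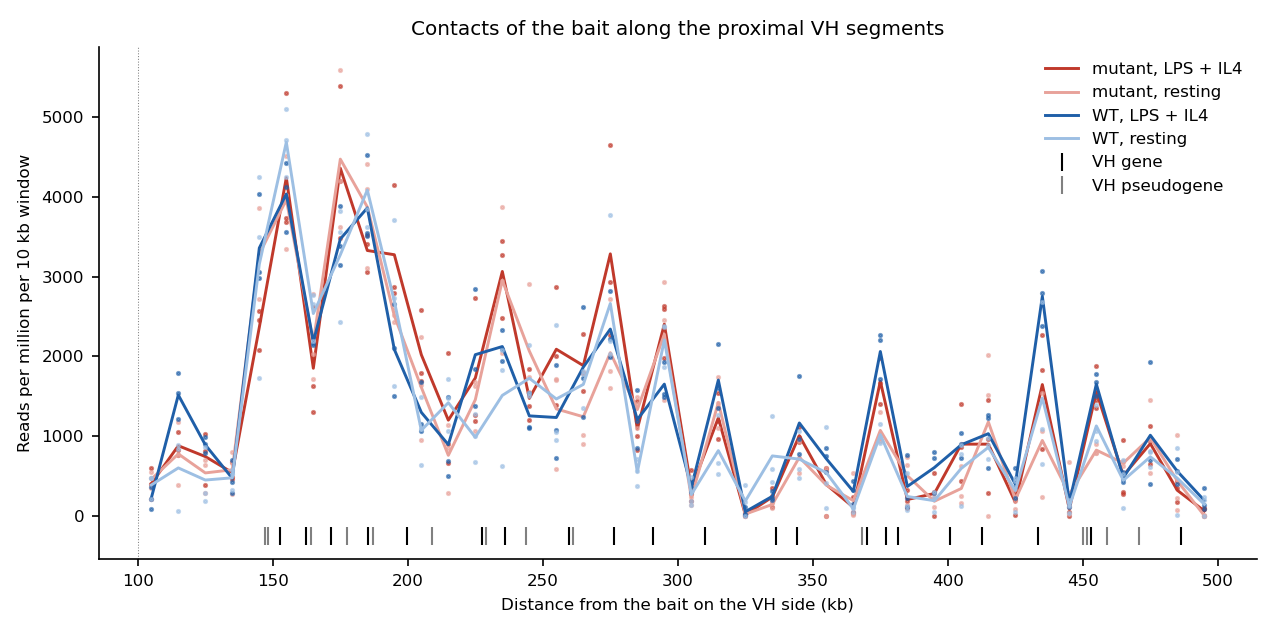
RPM in each 10 kb window of the proximal VH segments against distance from the bait in kb, with a point for each of 12 libraries, a line for the mean of each group and ticks for VH genes (black) and VH pseudogenes (grey). All 4 lines stay low over the 40 kb nearest the bait, are highest between 140 and 200 kb and lie mostly lower beyond 300 kb. An exception is the window at 430 to 440 kb, where the WT LPS + IL4 line reaches 2754 RPM.

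Of the 10 kb windows the most read was the one that holds Ighv5-2 (VH81X), the functional VH gene nearest the D segments, at chr12:113576026-113586025. It had 5307, 3739 and 3685 RPM in mutant LPS + IL4 cells and 4520.5, 4031 and 3349 in mutant resting cells. WT LPS + IL4 cells had 4424, 3563 and 4130.1, and WT resting cells 4246, 4713 and 5107. All 4 groups overlapped. The windows with Ighv5-4 and Ighv6-1 (start 113596026, mean 3897 over 12 libraries) and with Ighv2-3 and Ighv5-5 (start 113606026, mean 3789.9) followed. The 3 least read windows were that of Ighv5-18 (start 113866026, mean 159.8) and the windows with start 113916026 (mean 100.7) and 113746026 (mean 69), which hold no VH gene midpoint. Each of these 3 was at 0 in at least 1 library.

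To compare VH genes, reads were summed over 5 kb around each gene's midpoint. Because genes lie close together, 18 of the 35 units overlap a neighbour and share its ends. The units hold 6 to 26 listed ends, and the order of the sums does not allow for that number. VH genes resemble each other in sequence, and how the authors treated reads with several matches is not given in the sources used here, so the order of genes carries that uncertainty as well. Within 200 kb of the bait, the 10 units had means of 1218 to 2429 RPM over the 12 libraries, and the 25 units beyond had 120.0 to 2546. The median over the 35 was 901, against 458 for 86 VH gene units in the middle segments and 243 for 63 in the distal ones.

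The highest sum of all was that of Ighv2-6, at 291 kb, with a mean of 2546 RPM. Mutant LPS + IL4 cells had 3425, 2208 and 2802, mutant resting cells 3723, 1589 and 3393, WT LPS + IL4 cells 2392, 1967 and 2397, and WT resting cells 2486, 1882 and 2288. By this sum Ighv2-6 stood above its neighbours on either side, Ighv5-12 (mean 1475) and Ighv5-9-1 (mean 724). The mutant libraries overlapped the WT libraries. Its unit has 23 listed ends, against 10 in each of these neighbours. Per listed end Ighv2-6 had 110.7 RPM, against 147.5 in Ighv5-12 and 72.4 in Ighv5-9-1. By that measure the pseudogenes Ighv5-3 (251.7), Ighv5-5 (167.8), Ighv5-10 (153.2) and Ighv5-1 (112.5) were also above it. So were Ighv2-2 (194.8), Ighv5-2 (145.3), Ighv5-6 (136.5), Ighv5-4 (135.4) and Ighv2-5 (123.4). By the sum, Ighv2-3 (mean 2429), the pseudogene Ighv5-5 (2349.7), Ighv2-2 (2142) and the pseudogene Ighv2-1 (2141) came next. Ighv2-3 and Ighv5-5 lie within 2 kb of each other, as do Ighv5-1 and Ighv2-1, so their values are not independent.

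Ighv5-2, VH81X, had a mean of 2034 RPM and came after these 5. It had 2576, 1680.4 and 2103 in mutant LPS + IL4 cells, 1991, 1860.3 and 1579 in mutant resting cells, 2202, 1808 and 2001 in WT LPS + IL4 cells and 2623, 1497 and 2482 in WT resting cells. Ighv2-2, the next functional gene, had 2608, 1288 and 1625 in mutant LPS + IL4 cells, 2029, 2465 and 1721 in mutant resting cells, 2129, 2072 and 2239.9 in WT LPS + IL4 cells and 2772, 2573 and 2187 in WT resting cells. Both genes overlapped between all 4 groups. The pseudogene Ighv5-1 had 1588, 1729 and 1370.1 in mutant LPS + IL4 cells, against 2821, 1999 and 2223 in mutant resting cells, so the mutant conditions did not overlap. Its edgeR log2 change in mutant cells was -0.59 ± 0.31 (SE, adjusted p = 0.752) and was not called. In WT cells Ighv5-1 had 2501, 1633 and 1684 after LPS + IL4 and 1112, 2065 and 2216 at rest, which overlapped.

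The lowest units were Ighv2-7 (mean 120.0), Ighv7-2 (168.7) and Ighv5-12-4 (258). Ighv2-7 varied widely from library to library. It had 12.6, 40.9 and 2.26 RPM in mutant LPS + IL4 cells, 41.3, 549 and 280.1 in mutant resting cells, 3.21, 352 and 110.1 in WT LPS + IL4 cells and 0.397, 0.588 and 47.9 in WT resting cells. Such a spread within a group leaves its comparisons with wide intervals. Genes annotated as V segments had a median of 901 and pseudogenes one of 878. Within 200 kb of the bait these medians were 2034 for 5 V segments and 1912 for 5 pseudogenes, and beyond they were 744 for 16 and 461 for 9. The Ighv5 family had a median of 995, Ighv2 949 and the 2 Ighv7 genes 294, while Ighv6-1 had 1577. Within 200 kb of the bait the medians were 1911 for 6 Ighv5 genes and 2142 for 3 Ighv2 genes, and beyond they were 695 for 14 and 629.7 for 8. These are descriptions over genes that share libraries.

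**Figure D2:**
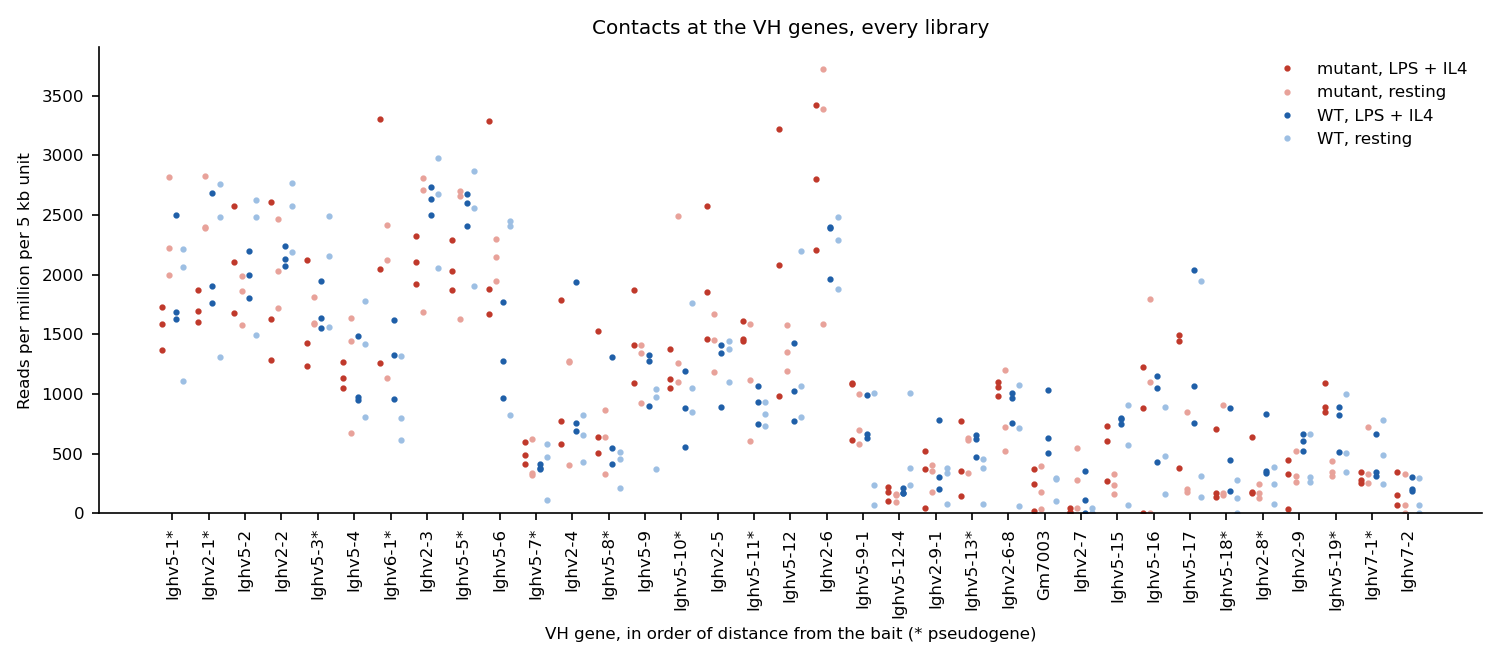
RPM within 5 kb around each of the 35 VH genes in order of distance from the bait, a point for each library, coloured by group. Values lie mostly above 1000 for the 10 genes nearest the bait, Ighv2-6 is highest by its mean of 2546, and in most genes the colours overlap.

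Over the stretch as a whole, ends near VH genes held more of the reads than their share of ends would give. The 398 ends inside a VH gene unit are 37.8% of the listed ends of the stretch and held 53.3% to 62.0% of its reads. From the first VH gene unit on, where 43.0% of the ends lie in units, they held 57.9% to 66.2%. However, 10 of the 35 units lie in the 60 kb of highest contact, which held a mean of 38.1% of the reads. The split was not made within the pieces of the stretch, so closeness to genes cannot be told apart from position here. A small number of ends carried much of the signal, since 30 to 50 ends held 50% of the reads in each library.

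The most read single end was at chr12:113589006-113589029, 306 bases beyond Ighv2-2 on the side away from the bait. It had 1889.5, 1169 and 1156 RPM in mutant LPS + IL4 cells, 1549, 1487 and 1223 in mutant resting cells, 1388, 1457 and 1558 in WT LPS + IL4 cells and 1689.7, 2106 and 1501 in WT resting cells. It was listed in all 6 LPS libraries as well, and the end on the other side of its cut site had a mean of 34.0 RPM. The end at chr12:113578991-113579014, 1 base beyond the annotated end of Ighv5-2, followed the 5 most read, with 493 to 1039 RPM in the 12 libraries. Both ends were listed in all 18 libraries.

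Other strong ends were less even. The end at 113604336, 408 bases beyond the pseudogene Ighv6-1, had 1906, 1710.2 and 959 in mutant resting cells, against 209.8, 524 and 334 in WT resting cells, without overlap. After LPS + IL4 it had 2133, 1123 and 468 in mutant cells, against 667, 1120.5 and 786 in WT cells, which overlapped. Its edgeR log2 change at rest was 2.10 ± 0.55 (SE), with an adjusted p of 0.456 over all 5317 ends tested. The end at 113625351, 134 bases from Ighv5-6, had 990.1, 1499.8 and 987 in mutant resting cells, against 871, 1.18 and 610.1 in WT resting cells. After LPS + IL4 it had 2393, 495 and 997 in mutant cells, against 433, 309 and 171 in WT cells. Neither set of groups overlapped, but the log2 changes of 1.23 ± 1.24 at rest and 2.09 ± 1.27 after LPS + IL4 had adjusted p-values of 0.954 and 0.746. The ends at 113668802 near Ighv5-10 and at 113599307 beyond Ighv5-4 were also among the 5 most read and overlapped between genotypes in both conditions.

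**Figure D3:**
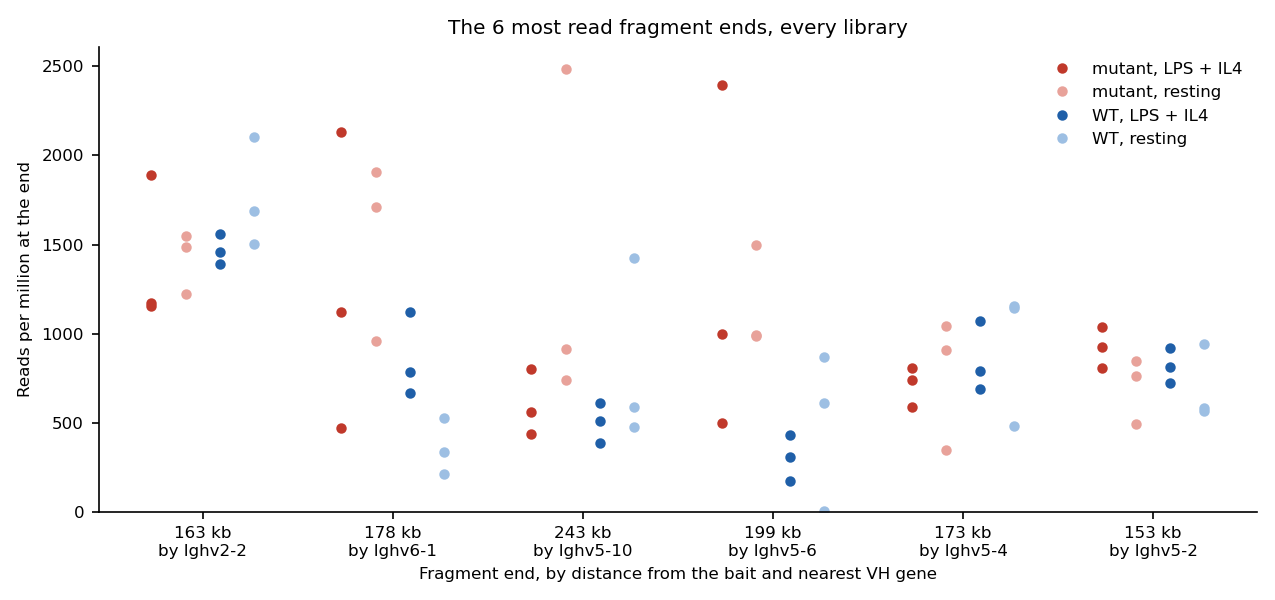
RPM at the 6 most read fragment ends, each named by its distance from the bait and its nearest VH gene, with a point for each library. The ends by Ighv2-2 and Ighv5-2 are present at a like level in all 12 libraries, while those by Ighv6-1 and Ighv5-6 spread widely.

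Few ends were found everywhere. Of the 1052 ends, 68 (6.46%) were listed in all 18 libraries and 139 (13.2%) in 1 library only. The 68 held 30.1% to 44.0% of the reads of the stretch, 48 of them lay in a VH gene unit, and 41 lay between 140 and 200 kb from the bait, against 1 in the 40 kb before. The middle and distal VH segments had 3.11% and 2.36% of their ends in all 18 libraries.

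Activation was compared with rest in each genotype. In mutant cells the stretch took 6.26%, 5.01% and 5.18% of the chromosome 12 reads after LPS + IL4, against 5.24%, 4.87% and 5.04% at rest. The means were 5.48% ± 0.67 and 5.05% ± 0.19 (SD, n = 3 each), and the groups overlapped. edgeR's quasi-likelihood test over 17 elements of the locus gave a log2 change of 0.12 ± 0.09 (SE, 95% interval -0.06 to 0.29, adjusted p = 0.195), where 70.6% of the 17 elements were called. With capped reads it was 0.27 (adjusted p = 0.0137), when a covered end had the weight of 1 read it turned to -0.10 (0.395), and without mutant LPS + IL4 replicate 1 it was 0.01 (0.848).

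In WT cells the stretch took 5.83%, 5.55% and 5.04% of the chromosome 12 reads in WT LPS + IL4 cells, against 4.84%, 4.79% and 4.99% in WT resting cells. The means were 5.47% ± 0.40 and 4.88% ± 0.11 (SD, n = 3 each), and the groups did not overlap. The edgeR log2 change was 0.17 ± 0.09 (SE, 95% interval -0.01 to 0.34), with an adjusted p of 0.0949, where 52.9% of the elements were called. The value thus missed the threshold of 0.05. It passed with reads capped at the 99th percentile (0.24, adjusted p = 0.0264), with the compared groups alone (0.0364), without WT LPS + IL4 replicate 3 (0.22, 0.0428) or mutant LPS + IL4 replicate 1 (0.013), and without mutant replicate 1 on both days (0.0113), and it was over 1.5 times smaller with TMM factors (0.06, 0.646), with DESeq2 (0.03, 0.837) and with covered ends weighted as 1 read (0.003). The activation effects of the genotypes differed by a log2 of -0.05 ± 0.13 (mutant minus WT, 95% interval -0.30 to 0.20, adjusted p = 0.741), where 0% of elements were called.

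Over both genotypes the log2 share was 0.14 higher after LPS + IL4 than at rest, with an exact two-sided permutation p of 0.045 within genotypes, adjusted to 0.09 over the 4 permutation tests made. It was higher in 6 of 6 pairs of libraries with equal number. Equal numbers went together for mutant replicate 1, but were not clearly found to pair the other libraries. Within the library set that holds mutant replicate 1 and WT replicates 1 and 2, the log2 differences were 0.26 in mutant and 0.24 in WT cells. In the other set they were 0.04 and 0.01, each with 1 or 2 libraries per group. The difference in share was thus larger within the set that holds mutant replicate 1, and why was not tested.

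The 4 pieces of the stretch were also set side by side. In the last 200 kb mutant LPS + IL4 cells had 54.7, 66 and 67.7 RPM per kb, against 45.9, 54.5 and 60.8 in mutant resting cells. WT LPS + IL4 cells had 89, 88.5 and 73.3 there, against 59.8, 53.4 and 53.7 in WT resting cells. In the 40 kb nearest the bait mutant LPS + IL4 cells had 53.6, 73.1 and 66.2, against 57.2, 68.7 and 50.8 in mutant resting cells. WT LPS + IL4 cells had 74.8, 77.1 and 80.8 there, against 41.9, 31.3 and 70.6 in WT resting cells. In the 60 kb of highest contact the means were 324 ± 51.1 in mutant LPS + IL4 cells and 338 ± 22.3 in mutant resting cells, and 317 ± 25.2 in WT LPS + IL4 cells and 341 ± 11.4 in WT resting cells (SD, n = 3 each). In the 100 kb after these the means were 203 ± 54.8 in mutant LPS + IL4 cells and 171 ± 23.9 in mutant resting cells, and 159 ± 10.6 in WT LPS + IL4 cells and 153 ± 1.24 in WT resting cells. In mutant cells the groups overlapped in all 4 pieces. In WT cells they did not overlap in the nearest 40 kb and the last 200 kb, and overlapped in the 60 kb and the 100 kb between. These pieces were chosen after the values were seen and carry no test.

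None of the 40 windows of 10 kb was called in either activation comparison, where 3.26% (mutant) and 4.51% (WT) of the 399 windows tested were called. At an unadjusted p under 0.05 there were 2 in mutant and 5 in WT cells, against 10.5% and 12.8% of all windows, and DESeq2 called 0 in both, against 5.53% and 6.53%. In mutant cells 22 of the 40 windows were higher after LPS + IL4, with a median log2 change of 0.07, against 0.05 over all windows. In WT cells 27 were higher, with a median of 0.30, against 0.08 over all windows. The window with the lowest p in WT cells, at chr12:113796026-113806025 with Ighv2-6-8 and Gm7003, had 2265, 1715 and 2207 RPM after LPS + IL4, against 989.6, 1150.2 and 918 at rest, without overlap (log2 1.02 ± 0.32, adjusted p = 0.0906). In mutant cells it had 1985, 1409 and 1674 after LPS + IL4, against 1300.1, 939 and 979 at rest (log2 0.66 ± 0.32, adjusted p = 0.470), again without overlap. As a 20 kb window that also takes in the pseudogene Ighv5-13, from 113786026, it passed in WT cells (log2 1.10 ± 0.30, adjusted p = 0.0332). There it had 2419, 2158 and 2530.3 after LPS + IL4 and 1093, 1205 and 1024 at rest. The share of all 20 kb windows that passed is not given here.

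The other windows with low p were 113706026 (log2 1.14, adjusted p = 0.192) and 113736026 (1.06, 0.226) in WT cells, of which 113736026 was called without WT resting replicate 3 (1.52, 0.0407). The share of all windows called in that fit is not given here. In mutant cells the other windows with low p were 113876026, which holds the midpoints of Ighv2-8, Ighv2-9 and Ighv5-19 (0.92, 0.216), and 113696026, which holds Ighv5-12 (0.68, 0.463). Among the VH gene units 0 were called, as over all 181 units tested (0%). Those with the lowest p in WT cells were Ighv5-12-4 (log2 -1.57 ± 0.74, adjusted p = 0.968), Ighv2-7 (3.25 ± 1.91) and Gm7003 (1.66 ± 0.98). Gm7003 had 1038, 503 and 633 RPM in WT LPS + IL4 cells, against 292, 102 and 296 in WT resting cells, without overlap. In mutant cells they were the pseudogene Ighv5-19 (1.38 ± 0.52, adjusted p = 0.741), Ighv2-7 (-3.94) and the pseudogene Ighv2-1 (-0.56 ± 0.29). Ighv5-19 had 1091, 852 and 891 in mutant LPS + IL4 cells, against 309, 344 and 438 in mutant resting cells, also without overlap. At an unadjusted p under 0.05 there was 1 unit in mutant and 0 in WT cells, against 4.97% and 3.31% of all units. None of 573 single ends tested was called, against 0.32% (mutant) and 0.376% (WT) of 5317 ends, with 37 in mutant and 35 in WT cells at an unadjusted p under 0.05, against 7.45% and 7.94% of all ends. DESeq2 called 34 in mutant and 32 in WT cells, which are 7.47% and 7.05% of those it gave an adjusted p, near its background of 7.67% and 6.5%.

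More ends had at least 1 read after activation. With each library brought to the chromosome 12 depth of the shallowest, the stretch had 393, 549 and 549 covered ends in mutant LPS + IL4 cells, against 339, 361 and 427 in mutant resting cells. It had 527, 516 and 479 in WT LPS + IL4 cells, against 351, 356 and 443 in WT resting cells, without overlap. The ratio of means was 1.32 in mutant and 1.32 in WT cells. Over both genotypes the log2 difference was 0.40 (exact two-sided permutation p = 0.015, adjusted to 0.03 over the 2 tests of this measure, which was chosen after the values were seen). Set against all covered ends of chromosome 12, without equal depth, the log2 difference was -0.04 (exact permutation p = 0.52, adjusted p = 0.693). Of the reads, 50% lay in 32 to 46 ends in mutant LPS + IL4 cells, against 30 to 38 in mutant resting cells, and in 46 to 50 in WT LPS + IL4 cells, against 32 to 43 in WT resting cells.

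**Figure D4:**
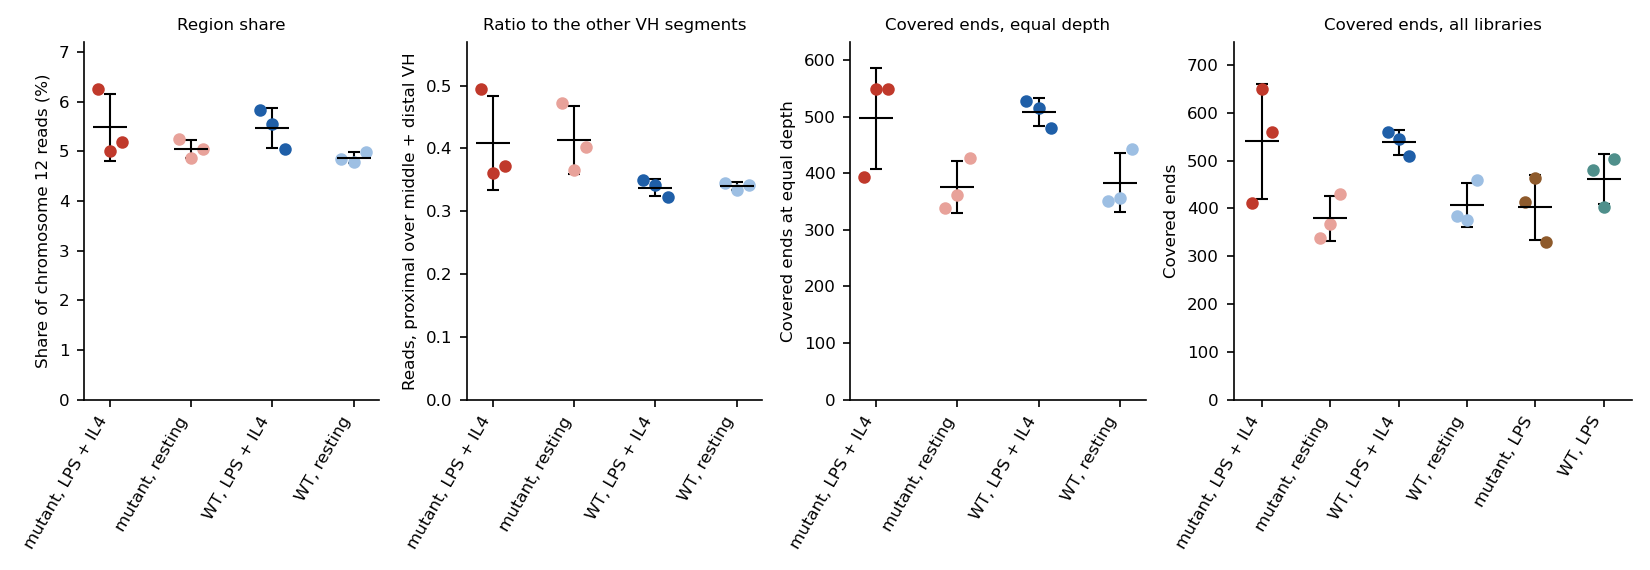
Values of the proximal VH segments per library, as points with the mean and SD of 3 libraries. The panels give the share of chromosome 12 reads in percent, the ratio of reads to the middle and distal VH segments, covered ends at equal depth and covered ends as listed in all 18 libraries. In the ratio panel each mutant library lies above each WT library of its condition.

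Med1 mutant and WT cells were then compared within each condition. In LPS + IL4 cells the share was 6.26%, 5.01% and 5.18% in the mutant, against 5.83%, 5.55% and 5.04% in WT. The groups overlapped, and the edgeR log2 change was 0.00 ± 0.09 (95% interval -0.17 to 0.18, adjusted p = 0.982), where 17.6% of the elements were called. TMM factors gave 0.20 (adjusted p = 0.156) and DESeq2 gave 0.12 (0.399). The TMM factors moved the median of all windows by 0.20 in this comparison, which is about the amount by which they moved the stretch. At rest the share was 5.24%, 4.87% and 5.04% in the mutant, against 4.84%, 4.79% and 4.99% in WT, again with overlap. The log2 change there was 0.05 ± 0.09 (95% interval -0.12 to 0.23, adjusted p = 0.755), where 11.8% of the elements were called. Over both conditions the log2 difference in share was 0.02 (exact two-sided permutation p = 0.69, adjusted p = 0.77). A p above the threshold does not show that the genotypes are alike, and the intervals reached from -0.17 to 0.23 over both conditions under this scaling.

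None of the 40 windows was called between genotypes, where 0% of the 399 windows were called in each condition. At an unadjusted p under 0.05 there was 1 window in LPS + IL4 cells and 4 at rest, against 1.75% and 9.02% of all windows. DESeq2 called 0 in LPS + IL4 cells and 2 at rest, against 0% and 3.02% of all windows. The 2 that DESeq2 called at rest differed in opposite directions. The window at chr12:113706026-113716025 had 1407, 1106 and 1486 RPM in mutant resting cells, against 373, 565 and 712 in WT resting cells, without overlap (edgeR log2 1.28 ± 0.42, adjusted p = 0.457, and DESeq2 1.44, 0.0428). After LPS + IL4 it had 1436, 831 and 1003 in the mutant, against 1185, 857 and 1585 in WT. The window at chr12:113756026-113766025, which holds Ighv5-12-4, had 99.4, 156 and 175 in mutant resting cells, against 583, 1253 and 422 in WT resting cells (edgeR log2 -2.39 ± 0.76, adjusted p = 0.457, and DESeq2 -2.27, 0.0428). After LPS + IL4 it had 107, 353 and 251 in the mutant, against 196, 318 and 223 in WT. Both windows separated the genotypes at rest and overlapped after activation. They were named because DESeq2 called them at rest, so separation there follows from the choice. The share of all windows that separated is not given here. The same 2 windows, with 113736026, had the lowest p for the difference of the activation effects (log2 -1.43, 2.34 and -1.27, adjusted p = 0.997 each), where 0% of windows were called and 3 of the 40 had an unadjusted p under 0.05, against 2.76% of all. DESeq2 called 0 of the 40 for this difference, against 0.503% of all. The third window with low p at rest was 113656026 (log2 0.97, adjusted p = 0.518). In LPS + IL4 cells those with the lowest p were 113616026 with Ighv5-6 (0.65), 113716026 with Ighv2-6 (0.54) and 113566026 with Ighv5-1 and Ighv2-1 (-0.51, adjusted p = 0.982 each).

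**Figure D5:**
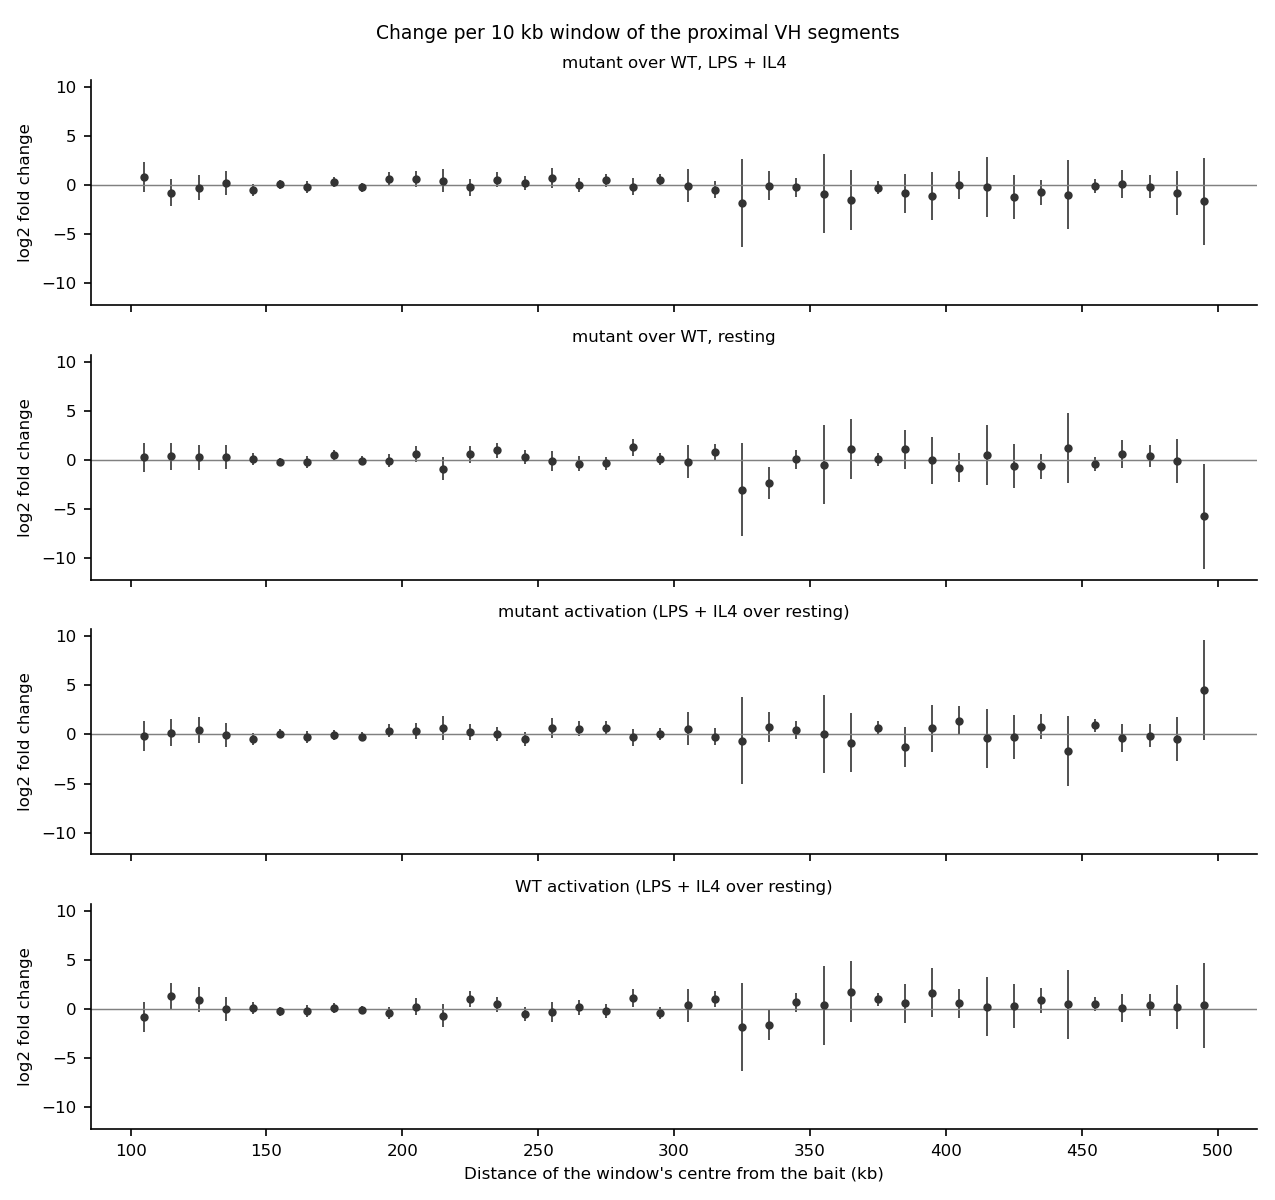
The edgeR log2 fold change of each 10 kb window with its 95% interval, against distance from the bait in kb, in the 4 comparisons. Intervals are narrow over the well read windows between 140 and 200 kb and wide beyond 300 kb, and no window was called.

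Precision differed along the stretch. The SE of a window's log2 change was 0.21 at the lowest, in the window of Ighv5-2, with a median of 0.55 over the 40 windows. At Ighv5-2's window the 95% interval of the change between mutant and WT was -0.37 to 0.51 after LPS + IL4 and -0.68 to 0.20 at rest. Among VH gene units 0 were called between genotypes, where 0% of the 181 were called, with 1 unit at an unadjusted p under 0.05 after LPS + IL4 and 2 at rest, against 2.76% and 7.73% of all units. DESeq2 called 0 of the 35 in both conditions, against 0% of all units after LPS + IL4 and 1.12% at rest. The lowest p-values at rest belonged to Ighv5-12-4 (log2 -1.98 ± 0.75, adjusted p = 0.436), the pseudogene Ighv6-1 (1.05 ± 0.42, 0.436) and Ighv2-7 (4.16 ± 1.99, 0.544). Ighv6-1 had 2419, 2123 and 1137 RPM in mutant resting cells, against 796, 619 and 1318 in WT resting cells, which overlapped. After LPS + IL4 they belonged to Ighv2-5 (0.69 ± 0.33), Ighv5-12 (0.96 ± 0.45) and Ighv5-6 (0.77 ± 0.40, adjusted p = 0.950 each). Ighv2-5 had 2577, 1464 and 1851 in mutant LPS + IL4 cells, against 1340.4, 1409.8 and 892 in WT LPS + IL4 cells, without overlap. For the difference of the activation effects the lowest p-values were those of Ighv2-7 (-7.20 ± 2.73), Ighv5-12-4 (1.88 ± 1.03) and Ighv5-1 (-0.70 ± 0.44, adjusted p = 0.956 each), where 0% of the units were called and 1 of the 35 had an unadjusted p under 0.05, against 4.42% of all units. None of the 573 ends was called between genotypes or in the difference of effects, where 0% of 5317 ends were called. At an unadjusted p under 0.05 there were 14 ends after LPS + IL4, 61 at rest and 49 in the difference, against 4.51%, 8.12% and 8.14% of all ends. DESeq2 called 8, 45 and 41 of them, which are 1.76%, 10.5% and 9.01% of those it gave an adjusted p, against a background of 3.25%, 9.93% and 8.01%.

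Adam6a, whose window of 10 kb starts at 113536026, lies within the piece of low contact. This window had 1056, 826 and 758 RPM in mutant LPS + IL4 cells, against 1179, 768 and 385 in mutant resting cells. It had 1219.7, 1788 and 1543 in WT LPS + IL4 cells, against 843, 67 and 896 in WT resting cells. In WT cells the conditions did not overlap, and after LPS + IL4 each mutant library lay below each WT library. The log2 changes were 1.33 ± 0.66 for WT activation (adjusted p = 0.427) and -0.79 ± 0.65 for mutant over WT after LPS + IL4 (adjusted p = 0.982). This window was singled out after its values were seen.

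The genotypes separated in the balance within the VH part of the locus. Reads in the proximal segments, divided by those in the middle and distal segments together, came to 0.494, 0.360 and 0.371 in mutant LPS + IL4 cells, against 0.349, 0.341 and 0.322 in WT LPS + IL4 cells. At rest the ratios were 0.472, 0.366 and 0.402 in mutant cells, against 0.345, 0.334 and 0.342 in WT cells. The mutant libraries lay above the WT libraries in 2 of 2 conditions, without overlap. Over both conditions the log2 difference was 0.27, with an exact two-sided permutation p of 0.005, adjusted to 0.02 over 4 tests. The 0.005 is the smallest p that 400 arrangements allow here, and both days of a replicate number were permuted as separate libraries. With both days of a number kept together, the exact permutation p was 0.1 (adjusted p = 0.2), the smallest that 20 arrangements allow. The proximal part of all VH reads averaged 28.9% ± 3.65 in mutant and 25.2% ± 0.78 in WT cells after LPS + IL4, and 29.2% ± 2.66 in mutant and 25.4% ± 0.32 in WT cells at rest (SD, n = 3 each). The ratio has no library scaling in it.

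The proximal share overlapped between genotypes in both conditions. The middle VH segments took 8.92%, 8.99% and 9.21% of the reads in mutant LPS + IL4 cells, against 10.6%, 10.2% and 9.72% in WT LPS + IL4 cells, without overlap (edgeR log2 -0.17, adjusted p = 0.000824), while at rest they overlapped (-0.02, 0.755). In the LPS + IL4 comparison TMM factors moved the 17 elements up by a median log2 of 0.19. DESeq2 called 1 of the elements there, against 3 called by edgeR. The middle VH values under these settings are not given here, so the call is stated for the main scaling only. The distal VH segments took 4.46% ± 0.64 of the reads in mutant and 6.05% ± 0.10 in WT cells after LPS + IL4, and 4.01% ± 0.99 in mutant and 5.90% ± 0.33 in WT cells at rest (SD, n = 3 each). These did not overlap, but edgeR's log2 changes of -0.44 after LPS + IL4 and -0.56 at rest were not called (adjusted p = 0.153 and 0.0788). Without mutant replicate 1 on both days the log2 difference in the ratio was 0.15 (exact permutation, adjusted p = 0.04). That setting was chosen after the data were seen. Its 100 arrangements again permuted both days of a number as separate libraries. Leaving out any 1 of the 6 WT libraries kept the difference in the ratio at 0.25 to 0.28, with an adjusted p of 0.05 to 0.06 over 200 arrangements in place of 400. Leaving out any 1 mutant library gave 0.19 to 0.31 (adjusted p = 0.02 to 0.04). Within the set that holds mutant replicate 1 it was 0.52 after LPS + IL4 and 0.48 at rest, and within the other set 0.18 and 0.17. Between activated and resting cells the ratio differed by a log2 of -0.02 (exact permutation p = 0.77, adjusted p = 0.77).

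In cells cultured with LPS alone, coverage replaced reads. The mutant LPS libraries covered 414, 464 and 330 of the 1052 ends, against 480, 403 and 504 in the WT LPS libraries. Of all covered ends on chromosome 12 these were 5.58%, 5.16% and 4.95% in mutant LPS cells, against 4.93%, 5.32% and 4.84% in WT LPS cells, so the groups overlapped. The limma log2 difference was 0.06 (95% interval -0.18 to 0.29, adjusted p = 0.8005 over 17 elements, of which 0% were called). On the log odds of coverage, which is not set against the rest of the chromosome, it turned to -0.34 (adjusted p = 0.446). Along the stretch these libraries covered 52.5% to 64.8% of the listed ends between 140 and 200 kb from the bait, against 27.5% to 43.1% in the 40 kb before, 33.5% to 55.7% in the 100 kb after and 24.3% to 40.3% in the last 200 kb. The range between 140 and 200 kb overlapped that of the 100 kb after it and lay above the other 2.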

How the data were processed

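The 18 libraries were cut with DpnII, ligated, cut with Csp6I, ligated again and amplified by inverse PCR, per the labels' protocols. The submitters' processing notes name mm10, Bowtie (earlier deposit) and Bowtie2 (LPS libraries). Mapping parameters are not given in the sources used here. The authors deposited raw read counts per fragment end for 12 libraries, without normalization, and for the 6 LPS libraries deposited the coordinates of covered ends with no count. Reads carry no molecular identifiers, so PCR copies count as separate reads. The Wilson intervals cover counting error only and may be too narrow for it. The edgeR and limma intervals rest on the spread between libraries.

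Positions were made 1-based, and ends less than 5 kb from the bait were dropped. Reads were summed over 17 elements, 10 kb windows, 5 kb units around RefSeq VH gene midpoints (GRCm38.p6) and single ends. Features averaging 10 reads or more per library (40 windows, 35 units and 573 of the 1052 ends of the stretch) were tested with edgeR 4.0.16 (quasi-likelihood, 12 libraries in 1 fit, chromosome 12 reads as library size, no TMM factors) in R 4.3.3, two-sided, with Benjamini-Hochberg adjustment over all features of a kind. For LPS libraries limma 3.58.1 was run on log2 shares, after adding 1 to the covered ends. Shares and ratios were tested by exact permutation within condition or genotype, adjusted over 4 tests. Equal depth was 1016042 reads, by the expected number of covered ends. Fits were tested on simulated data. DESeq2 1.42.0 was an alternative. Python 3.11.15 was used with pandas 2.3.3, numpy 2.4.6, scipy 1.17.1 and matplotlib 3.10.9.

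Named VH genes are those nearest the D segments, the 5 highest and 3 lowest by mean level and the 3 of lowest p per comparison. Named windows are the 3 highest, the 3 lowest and the 3 of lowest p. Named ends are the 5 most read, and that of Ighv5-2 was added after its values were seen. Members and lists were chosen with earlier results of these data known. Deviations from group means over 399 windows correlated between equal replicate numbers by 0.269, 0.145 and 0.099 in mutant cells. The highest correlations with other numbers there were -0.179, 0.144 and 0.065. In WT cells equal numbers gave -0.074, 0.029 and -0.068, against at most 0.139, 0.0385 and 0.0354 for other numbers. Equal numbers thus went together for mutant replicate 1 and little or not for the others, and the main tests paired no libraries.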

Additional observations from a re-analysis of the deposited data

How the results depend on the processing

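Of 376 alternatives over 17 results, 332 kept the direction and the side of the threshold. Counts of called features in the stretch, 0 as reported, became 1 window in WT activation with 20 kb windows. The share of all 20 kb windows called is not given here. DESeq2 gave 2 windows between genotypes at rest (5% of the 40, against 3.02% of all windows). It gave 66 ends over the 4 activation and genotype comparisons together. In these it called 1.76% to 10.5% of the ends of the stretch, against 3.25% to 9.93% of all ends. Without mutant replicate 1 on both days, an alternative chosen after seeing the data, 1 end was called. Leaving out single libraries gave 0 to 1 windows in WT activation and 0 to 2 ends. The shares of all windows and ends called in these fits are not given here, so the counts cannot be set against them. The log2 share after LPS + IL4 over rest was -0.042 with covered ends in place of reads, 0.26 with capped reads (adjusted p = 0.01), and 0.089 to 0.17 with a library left out, past the threshold without mutant LPS + IL4 replicate 2 (0.03). For mutant over WT the log2 share was -0.0088 with covered ends, -0.039 without mutant replicate 1 on both days, and -0.025 to 0.055 with a library left out, below 0 also without WT LPS + IL4 replicate 3 (-0.0050). The number of covered ends of the stretch at equal depth, a count and not a share, chosen after seeing the data, differed by a log2 of 0.40 for LPS + IL4 over rest (adjusted p = 0.03) and -0.037 for mutant over WT. WT activation was 0.17 with the compared groups alone and without mutant replicate 1 on both days, 0.24 with capped reads, and 0.12 to 0.22 with a library left out. The difference of the activation effects was 0.073 with DESeq2, 0.082 with TMM factors, 0.034 with capped reads and -0.15 to 0.012 with a library left out. Mutant activation was -0.095 with covered ends counted and 0.27 with capped reads. Mutant over WT after LPS + IL4 was -0.0014 with 2 kb left out around the bait, -0.058 with covered ends counted, -0.057 with library sizes from 1 Mb, -0.0013 with the replicate block, -0.10 without mutant replicate 1 on both days and -0.10 to 0.063 with a library left out (-0.054 without WT LPS + IL4 replicate 3). In the LPS libraries the log odds gave -0.34. The ratio of proximal to other VH reads was 0.27 between genotypes with the replicate block, where the adjusted p was 0.2 and the smallest p the arrangements allow is 0.1, and 0.19 to 0.31 with a library left out. For activation it was -0.090 to 0.032 with a library left out (0.024 and 0.013 without mutant LPS + IL4 replicates 2 and 3). The replicate block changed no other call. The cause of these changes was not tested. Single ends could not be fitted with covered ends counted once.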
